A study of Mus musculus with 8 samples.

Results

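The genes described here are the glutathione transferases, dehydrogenases and conjugating enzymes of the mouse lung, a set of 103 genes among the 19937 named genes on the array. They were chosen by symbol, as every gene with a single annotated symbol in the soluble glutathione transferase, UDP-glycosyltransferase (Ugt), sulfotransferase (Sult), aldehyde dehydrogenase (Aldh), alcohol dehydrogenase (Adh), carbonyl reductase (Cbr), flavin monooxygenase (Fmo), aldehyde oxidase (Aox) and carboxylesterase (Ces) families, and each was read from its brightest probe set by the mean of 8 arrays. Lungs came from untreated mice at postnatal day 21, with 4 mice carrying stabilized beta-catenin and 4 mice in which beta-catenin was knocked out. Beta-catenin carries the canonical Wnt signal to the genome, and a stabilized form escapes degradation. Which promoter drove recombination, which exons were altered and which strain was used are not given in the labels, and unmodified lungs were not analysed here, so a difference does not show which genotype departed from normal lung. A further 11 probe sets whose several symbols include a matching one were left unnamed, so the 103 genes do not cover every gene of these families.

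These enzymes make foreign and endogenous lipophilic molecules easier to excrete. Dehydrogenases, reductases, monooxygenases and oxidases first add or alter an oxygen-bearing group and carboxylesterases split esters, after which transferases attach glutathione, a sugar or a sulfate group. In rodent lung the non-ciliated secretory (club) cells of the bronchioles are a known site of this metabolism, and some of the enzymes also act on retinoids, lipid peroxidation products and lipid esters.

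Arrays of the same genotype correlated at 0.993 to 0.996 over all genes and arrays of different genotypes at 0.987 to 0.993, and no pair of arrays held the same values. Ctnnb1 transcript, which encodes beta-catenin, lay at 11.14, 11.12, 11.02 and 10.99 on the log2 scale in stabilized lungs 1 to 4 and at 10.98, 10.99, 10.92 and 11.03 in knockout lungs 1 to 4 (difference 0.09 ± 0.06, SE, limma adjusted p = 0.42), and without the altered exons this value does not check the genotype. All mice are recorded as male, but 4 arrays, 2 per genotype, had Xist at 10.4 to 10.6 and Uty, Kdm5d and Eif2s3y, which are Y-linked, at 3.08 to 4.00, against 4.18 to 4.62 for Xist and 6.71 to 8.35 for the Y-linked genes in the other 4. These 4 arrays were stabilized lungs 1 and 4 and knockout lungs 1 and 3. Sftpc, the surfactant gene that defines alveolar type 2 cells, lay at 13.2 in both genotypes. Alb, the liver albumin gene, lay at 8.08 in stabilized lung 2 and at 4.09 to 4.64 in the other 7.

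Most detoxifying enzymes that passed the test were lower in stabilized than in knockout lungs, among them Gsta4, Sult1d1, Adh7, Aox3, Gsta3 and Gsto1. Of the 103 genes 16 fell and 2 rose, while 85 were not called at the threshold of 0.05 on the limma p adjusted over the whole array. The genes that fell made up 15.5% of the set, where 4.96% of all genes fell, and those that rose made up 1.94%, where 4.65% of all genes rose. In these whole lungs fewer cells of a type and less RNA per cell cannot be told apart. In either direction 17.5% of the set was called, against 9.62% of all genes. Among all genes 48.4% of calls were higher, or 61.2% after centring each array on its median, and under that centring the set gave 2 higher and 15 lower, without Gstm3. The median difference was -0.07 on the log2 scale for the set and -0.01 for all genes, with values from -0.92 for Gsta4 to 0.39 for Ces2e. In 20 of the 103 genes every stabilized lung lay below every knockout lung, against 7.82% of all genes, and in 4 every stabilized lung lay above, against 9.06% of all genes.

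**Figure D1:**
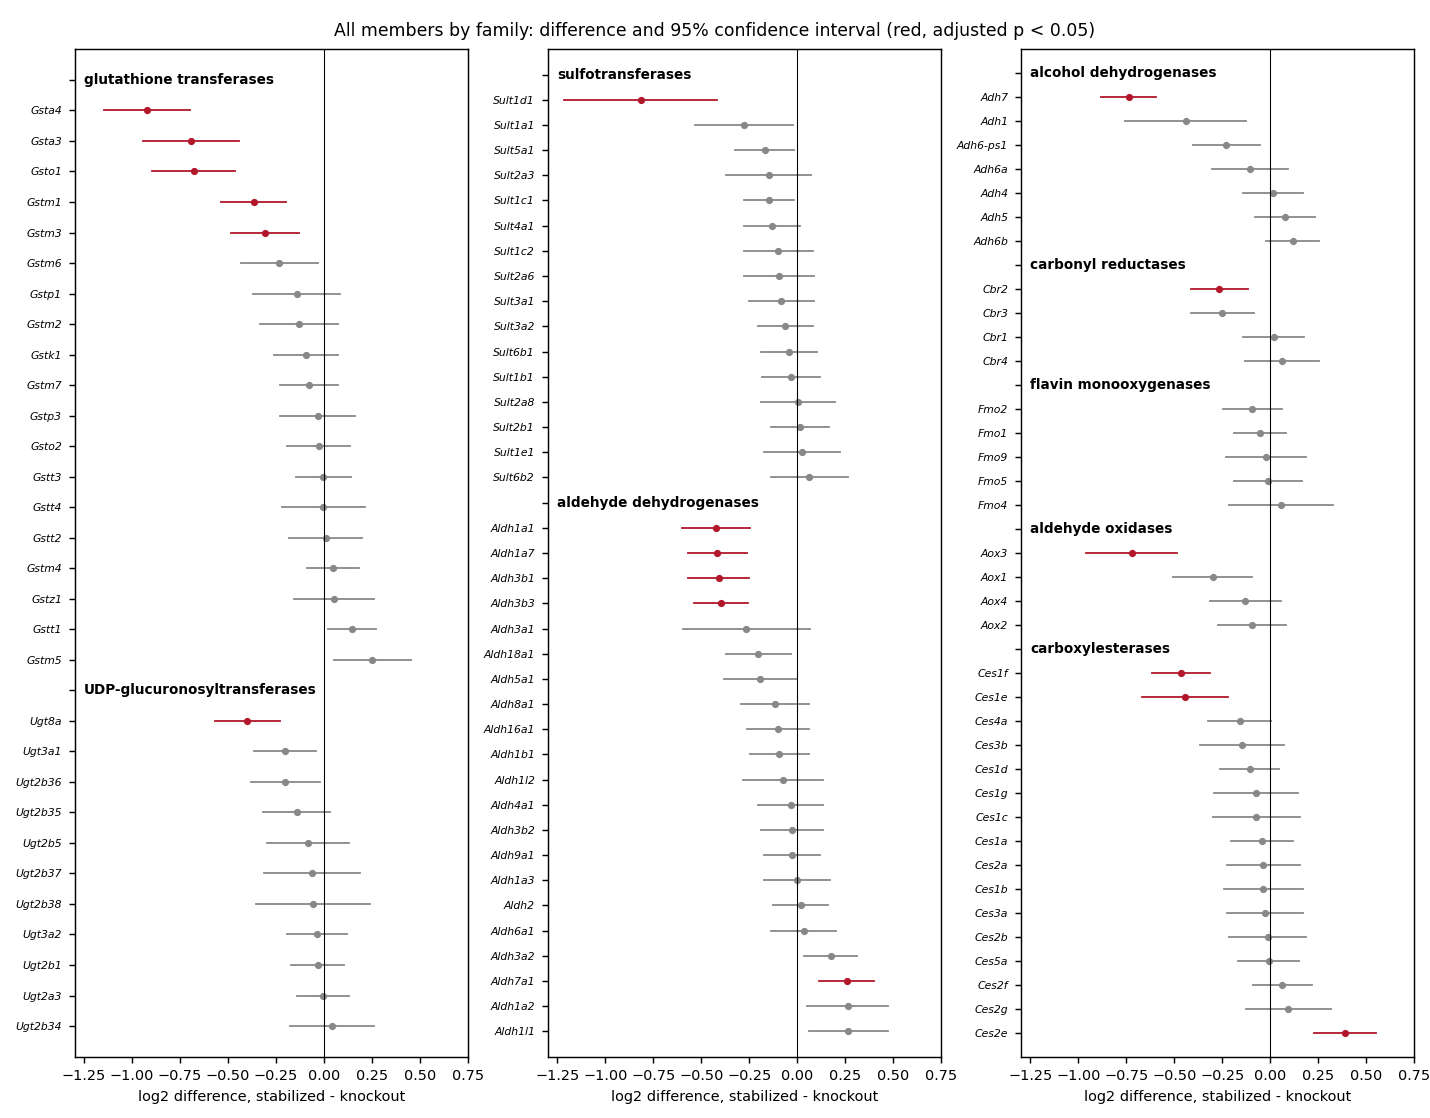
Difference between stabilized and knockout lungs (log2, x axis) for all 103 genes by family, with points for the estimate and lines for its 95% confidence interval. The 18 called genes are red, 16 of them left of 0, and most of the other intervals cross 0.

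The calls were spread over roles, and the shares by family rest on few genes each. Among 46 conjugating enzymes 7 fell and 0 rose, among 41 oxidizing and reducing enzymes 7 fell and 1 rose, and among 16 carboxylesterases 2 fell and 1 rose. In either direction these were 15.2%, 19.5% and 18.8% called, against 9.62% of all genes. By family the share was 26.3% in glutathione transferases, 25% in carbonyl reductases, 25% in aldehyde oxidases and 23.8% in aldehyde dehydrogenases. It was 18.8% in carboxylesterases and 14.3% in alcohol dehydrogenases. The lowest shares were 9.09% in Ugt genes (1 of 11), 6.25% in sulfotransferases (1 of 16) and 0% in flavin monooxygenases (0 of 5). All 11 Ugt genes and 14 of the 16 sulfotransferases had a mean below 6, so their shares say little. Many members gave little signal in lung: 58 of the 103 had a mean below 6 on the log2 scale, near the array medians of 5.97 to 6.03, and 6 of the 18 calls were among them. Differences of such dim genes tend to be understated. Stabilized lungs 1 to 4 had a mean over the 103 genes of 5.97, 5.97, 5.99 and 6.01, and knockout lungs 1 to 4 had 6.14, 6.06, 6.10 and 6.12, so the groups did not overlap. The medians of the whole arrays did not overlap either, at 5.97 to 5.98 in stabilized and 6.01 to 6.03 in knockout lungs. Such a separation is therefore not particular to these genes.

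**Figure D2:**
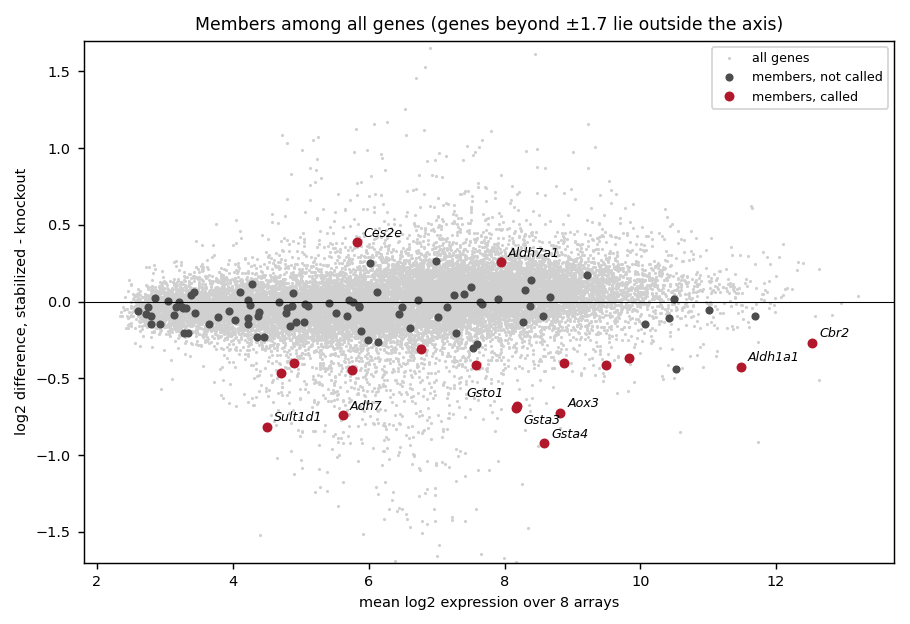
Difference between stabilized and knockout lungs (log2, y axis) against mean log2 expression over 8 arrays (x axis), with all genes in grey, uncalled members dark and called members red. Gsta4, Aox3, Gsta3 and Gsto1 lie near a level of 8 to 9 with differences between -0.68 and -0.92, and Cbr2 is the brightest called member at 12.5.

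Promoter sequence was available for 86 of the 103 genes in RefSeq (build GRCm38.p6), as windows of 300 bases from 250 before to 50 after an annotated start. Of the 18 called genes 15 had a window, and Gsta4, Aldh7a1 and Ces1f are named only. Windows were searched on both strands for the TCF/LEF motif (spelled AACAAAG, or as the variant ATCAAAG, as the variant TACAAAG or as the variant TTCAAAG), bound by the partners through which beta-catenin acts on genes, for the core of the antioxidant response element (TGACNNNGC), bound by Nrf2, and for the core of the xenobiotic response element (GCGTG), bound by the aryl hydrocarbon receptor. The TCF/LEF motif was present in 4 of 17 windows of called genes (23.5%), 20 of 102 windows of the whole set (19.6%) and 16.9% of all 32851 windows. The antioxidant core was present in 1 of the 17 windows (5.88%), 5.88% of the set's windows and 12.4% of all windows. The xenobiotic core was present in 7 of the 17 (41.2%), 21.6% of the set's windows and 32.4% of all windows. Those 7 windows belong to 6 genes: Adh7, Aldh3b3, Aox3, Gstm1, Sult1d1 and Ugt8a. Matches to the xenobiotic core are not marked below. A match is a description of the letters, not a site. The 5 windows of called genes that hold the TCF/LEF motif or the antioxidant core are printed 5′ to 3′ on the gene's strand, with the matches in capitals. They are Gsta3 (chr1:21240335-21240634, plus strand), Gstm3 (chr3:107969125-107969424, minus strand), Ugt8a (chr3:125938603-125938902, minus strand), Aldh3b3 (chr19:3958558-3958857, plus strand) and the upstream of 2 starts of Aldh1a1 (chr19:20492333-20492632, plus strand).
Gsta3: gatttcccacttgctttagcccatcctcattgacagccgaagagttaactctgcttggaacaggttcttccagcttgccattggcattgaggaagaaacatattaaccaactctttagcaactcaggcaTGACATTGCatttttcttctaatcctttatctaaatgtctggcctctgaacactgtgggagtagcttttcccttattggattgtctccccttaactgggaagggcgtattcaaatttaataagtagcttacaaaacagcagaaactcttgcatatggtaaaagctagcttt
Gstm3: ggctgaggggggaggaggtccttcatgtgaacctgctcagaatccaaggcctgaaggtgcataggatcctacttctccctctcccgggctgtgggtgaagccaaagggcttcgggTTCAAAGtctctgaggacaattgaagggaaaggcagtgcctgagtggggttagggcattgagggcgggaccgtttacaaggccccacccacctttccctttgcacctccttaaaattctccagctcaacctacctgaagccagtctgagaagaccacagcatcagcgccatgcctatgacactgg
Ugt8a: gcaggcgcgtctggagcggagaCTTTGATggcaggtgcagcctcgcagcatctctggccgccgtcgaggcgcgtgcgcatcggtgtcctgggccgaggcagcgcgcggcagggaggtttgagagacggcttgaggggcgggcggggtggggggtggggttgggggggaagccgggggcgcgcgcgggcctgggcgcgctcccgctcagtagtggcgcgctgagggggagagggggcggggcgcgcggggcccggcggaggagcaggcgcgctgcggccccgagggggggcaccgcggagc
Aldh3b3: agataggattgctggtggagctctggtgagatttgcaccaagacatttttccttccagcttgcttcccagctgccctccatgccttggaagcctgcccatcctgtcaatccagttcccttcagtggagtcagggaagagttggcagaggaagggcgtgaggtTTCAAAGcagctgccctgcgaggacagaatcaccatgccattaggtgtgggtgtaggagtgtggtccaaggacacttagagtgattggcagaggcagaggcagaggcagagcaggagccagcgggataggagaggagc
Aldh1a1: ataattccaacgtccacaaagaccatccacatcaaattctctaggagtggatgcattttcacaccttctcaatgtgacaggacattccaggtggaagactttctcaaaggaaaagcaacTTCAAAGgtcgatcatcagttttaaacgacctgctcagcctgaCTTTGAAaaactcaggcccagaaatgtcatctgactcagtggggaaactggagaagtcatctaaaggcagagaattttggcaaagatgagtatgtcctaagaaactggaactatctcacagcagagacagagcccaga
In Gsta3 the antioxidant core began 121 bases before the start. The TCF/LEF matches began 135 bases before the start in Gstm3, 228 in Ugt8a, 88 in Aldh3b3, and 131 and 88 in Aldh1a1, in which both strands were matched.

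Glutathione transferases held the largest decrease of the set. The 19 genes gave 5 decreases, 0 increases and a median of -0.08. The alpha class was lower in both of its measured genes. Gsta4, which conjugates 4-hydroxynonenal, a product of lipid peroxidation, had log2 values of 7.89, 8.24, 7.95 and 8.39 in stabilized lungs, against 8.98, 8.97, 9.08 and 9.13 in knockout lungs. All stabilized lungs were below all knockout lungs, by 1.90-fold on average (difference -0.92 ± 0.10, SE, n = 4 per group, limma adjusted p = 1.4e-04). Gsta3, known in mice for detoxifying aflatoxin epoxide, had log2 values of 7.55, 8.07, 7.95 and 7.75 in stabilized lungs, against 8.57, 8.30, 8.50 and 8.72 in knockout lungs. It was 1.62-fold lower without overlap, with stabilized lung 2 closest to the knockout lungs (difference -0.69 ± 0.11, SE, limma adjusted p = 0.0023).

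The omega-class Gsto1, a thioltransferase that also reduces dehydroascorbate, had log2 values of 7.82, 7.79, 7.77 and 8.02 in stabilized lungs, against 8.61, 8.22, 8.65 and 8.61 in knockout lungs. It was lower without overlap (difference -0.68 ± 0.10, SE, limma adjusted p = 9.9e-04), and knockout lung 2 stood below the rest of its group. Its neighbour Gsto2 differed by -0.03 ± 0.08 (SE), but at a mean of 4.88 it was dim, so a difference may be understated. In the mu class 2 of 7 genes fell. Gstm1 had log2 values of 9.64, 9.69, 9.65 and 9.64 in stabilized lungs, against 10.09, 9.79, 10.09 and 10.13 in knockout lungs, with knockout lung 2 again lowest of its group (difference -0.37 ± 0.08, SE, limma adjusted p = 0.010). Gstm3 averaged 6.61 ± 0.11 across stabilized and 6.92 ± 0.14 across knockout lungs (SD, n = 4), a call near the threshold (limma adjusted p = 0.034). A dimmer probe set of Gstm3 differed by -0.16 ± 0.08 (SE), and leaving out 1 array ended the call in 4 of 8 fits (stabilized lung 1 or 4, knockout lung 1 or 3). Centring each array on its median ended it too (limma adjusted p = 0.052). Mu-class sequences are alike, and probes may not fully tell them apart.

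The pi, theta, kappa and zeta classes gave no call among their 8 genes. Gstp1, whose probe set was the brightest of the family, differed by -0.14 ± 0.10 (SE, n = 4 per group), with a 95% confidence interval from -0.37 to 0.08 (limma adjusted p = 0.43). The theta-class Gstt1 averaged 8.47 ± 0.02 across stabilized and 8.32 ± 0.04 across knockout lungs and did not overlap, yet its difference of 0.14 ± 0.06 (SE) did not pass the test (limma adjusted p = 0.14).

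Sugar-transferring and sulfate-transferring enzymes were mostly dim, and each family held 1 call. Of 11 Ugt genes 1 fell and 0 rose, and all 11 had a mean below 6. The call was Ugt8a, which belongs to the family by sequence but adds galactose to ceramide, as in myelin lipids. It had log2 values of 4.64, 4.85, 4.65 and 4.68 in stabilized lungs, against 5.001, 5.24, 5.19 and 4.99 in knockout lungs, without overlap (difference -0.40 ± 0.08, SE, limma adjusted p = 0.0067). The 8 Ugt2 genes, glucuronosyltransferases best known from liver and nasal tissue, lay between 2.74 and 4.19 in stabilized lung 2, the lung with high Alb, and between 2.82 and 4.71 in the other 7. Their differences spanned -0.20 to 0.04. All 8 were dim, so their levels say little about the other members in stabilized lung 2.

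Among 16 sulfotransferases, 14 of them below 6, 1 fell and 0 rose. Sult1d1, which in mice sulfonates catecholamines and their metabolites, had log2 values of 4.10, 4.14, 3.98 and 4.16 in stabilized lungs, against 4.37, 4.61, 5.34 and 5.33 in knockout lungs. The knockout lungs split, with 3 and 4 well above 1 and 2, while all exceeded the stabilized lungs (difference -0.82 ± 0.18, SE, limma adjusted p = 0.015). Sult1a1, the phenol sulfotransferase and the brightest probe set of the family, averaged 7.46 ± 0.18 across stabilized and 7.73 ± 0.24 across knockout lungs (SD, n = 4) and overlapped (95% confidence interval of the difference -0.53 to -0.02, limma adjusted p = 0.17).

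**Figure D3:**
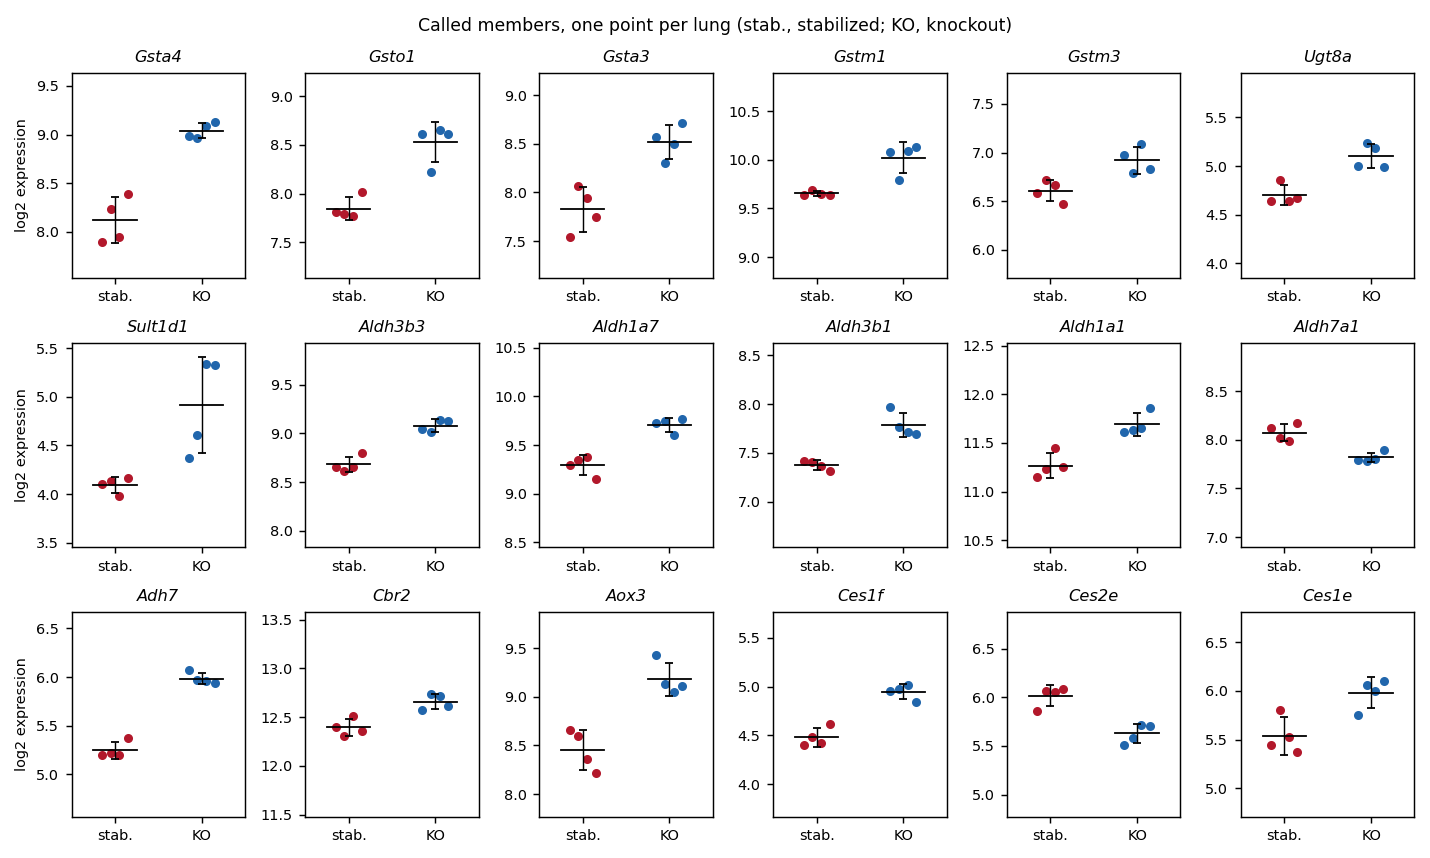
Log2 expression of the 18 called genes, one point per lung, with the group mean and SD (n = 4), every panel spanning the same range of log2 units. Aldh7a1 and Ces2e are the only panels in which stabilized lungs are above knockout lungs, and Ces1e is the only panel in which the groups overlap.

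Aldehyde dehydrogenases, which oxidize aldehydes to acids, gave 4 decreases and 1 increase among 21 genes, with 16 not passing and a median of -0.07. Aldh1a1, which oxidizes retinaldehyde to retinoic acid, had the brightest probe set of the family. It had log2 values of 11.15, 11.23, 11.44 and 11.25 in stabilized lungs, against 11.61, 11.63, 11.65 and 11.86 in knockout lungs, without overlap (difference -0.42 ± 0.08, SE, limma adjusted p = 0.0058). Its adjacent relative Aldh1a7 had log2 values of 9.30, 9.35, 9.38 and 9.15 in stabilized lungs, against 9.72, 9.74, 9.60 and 9.76 in knockout lungs. That difference, -0.42 ± 0.07 (SE, limma adjusted p = 0.0025), was of the same size, and the pair are similar enough in sequence that probes may share signal. The other retinaldehyde dehydrogenases, Aldh1a2 and Aldh1a3, differed by 0.26 ± 0.10 and -0.002 ± 0.08 (SE) and did not pass.

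A pair of the Aldh3b genes, whose enzymes oxidize lipid-derived aldehydes, also fell. Aldh3b1 had log2 values of 7.41, 7.41, 7.37 and 7.31 in stabilized lungs, against 7.97, 7.77, 7.71 and 7.70 in knockout lungs (difference -0.41 ± 0.07, SE, limma adjusted p = 0.0034). Aldh3b3 had log2 values of 8.65, 8.62, 8.66 and 8.80 in stabilized lungs, against 9.04, 9.01, 9.14 and 9.13 in knockout lungs (difference -0.40 ± 0.07, SE, limma adjusted p = 0.0022). Both genes separated the groups fully, whereas Aldh3b2 differed by -0.03 ± 0.07 (SE). The 2 dimmer probe sets of Aldh3b3 differed by -0.07 ± 0.07 and -0.03 ± 0.09 (SE), and the mean of all 3 was not called (limma adjusted p = 0.0844). Aldh7a1, an enzyme of lysine breakdown, rose without overlap, at 8.07 ± 0.09 across stabilized and 7.82 ± 0.05 across knockout lungs (SD, n = 4; limma adjusted p = 0.028). Leaving out 1 array ended it in 5 of 8 fits (stabilized lung 1 or 4, knockout lung 1, 2 or 3), and repeated quantile normalization ended it too (limma adjusted p = 0.073). Mitochondrial Aldh2, which clears acetaldehyde, averaged 10.51 ± 0.03 across stabilized and 10.49 ± 0.10 across knockout lungs (SD, n = 4), and its 95% confidence interval ran from -0.13 to 0.16.

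Alcohol dehydrogenases gave 1 decrease among 7 genes, and 0 rose. Adh7, the class IV enzyme that oxidizes retinol in epithelia, had the smallest p of the set. It had log2 values of 5.20, 5.22, 5.20 and 5.37 in stabilized lungs, against 6.07, 5.97, 5.96 and 5.94 in knockout lungs, a 1.67-fold decrease (difference -0.74 ± 0.07, SE, limma adjusted p = 2.4e-05). Adh1, the class I enzyme for ethanol and retinol, had log2 values of 10.14, 10.63, 9.84 and 10.58 in stabilized lungs, against 10.76, 10.78, 10.77 and 10.65 in knockout lungs. The groups did not overlap, but the stabilized lungs were widely spread, and the difference of -0.44 ± 0.14 (SE) did not pass (limma adjusted p = 0.078). It passed without stabilized lung 2 or 4 (lowest limma adjusted p = 0.038). Without stabilized lung 3, the lowest, the difference shrank to -0.29 ± 0.11 (SE, limma adjusted p = 0.13). Adh5, which handles formaldehyde bound to glutathione, differed by 0.07 ± 0.07 (SE).

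Carbonyl reductases gave 1 decrease among 4 genes. Cbr2, a carbonyl reductase that mouse lung is known to express strongly, had log2 values of 12.40, 12.30, 12.51 and 12.36 in stabilized lungs, against 12.57, 12.74, 12.72 and 12.61 in knockout lungs (difference -0.27 ± 0.07, SE, limma adjusted p = 0.029). The groups did not overlap, although these levels come close to the highest signal on the arrays (13.4 to 13.7). Leaving out 1 array ended the call in 5 of 8 fits (stabilized lung 1, 2 or 4, knockout lung 2 or 3). Cbr3 was nearest to the threshold from outside, at 5.86 ± 0.14 across stabilized and 6.11 ± 0.05 across knockout lungs (SD, n = 4; limma adjusted p = 0.059).

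None of the 5 flavin monooxygenases passed the test, and 0 had an unadjusted limma p under 0.05, where 4923 of all 19937 genes did. Fmo2, the form best known from lung, averaged 11.65 ± 0.11 across stabilized and 11.74 ± 0.07 across knockout lungs (SD, n = 4), with a 95% confidence interval of the difference from -0.25 to 0.06. Fmo1 averaged 10.98 ± 0.06 across stabilized and 11.03 ± 0.06 across knockout lungs (SD, n = 4).

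All 4 aldehyde oxidases, molybdenum-containing enzymes that oxidize aldehydes and nitrogen heterocycles, had negative differences, and 1 fell. Aox3 had log2 values of 8.65, 8.59, 8.36 and 8.21 in stabilized lungs, against 9.43, 9.13, 9.05 and 9.11 in knockout lungs, a 1.65-fold decrease without overlap (difference -0.72 ± 0.11, SE, limma adjusted p = 0.0012). Aox1 averaged 7.39 ± 0.18 across stabilized and 7.69 ± 0.12 across knockout lungs (SD, n = 4; limma adjusted p = 0.068). It was called lower with a trended robust prior, with repeated quantile normalization and with a minimum mean of 6 (limma adjusted p = 0.038 to 0.047). Aox4 and Aox2 differed by -0.13 ± 0.08 and -0.09 ± 0.08 (SE).

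Carboxylesterases, which hydrolyse esters of drugs and lipids, went both ways, with 2 lower, 1 higher and 13 not passing among 16, and 14 were below a mean of 6. Ces1f had log2 values of 4.40, 4.48, 4.42 and 4.62 in stabilized lungs, against 4.96, 4.97, 5.02 and 4.84 in knockout lungs (difference -0.47 ± 0.07, SE, limma adjusted p = 0.0012). Ces1e had log2 values of 5.44, 5.81, 5.52 and 5.37 in stabilized lungs, against 5.75, 6.07, 6.003 and 6.10 in knockout lungs, and stabilized lung 2 overlapped knockout lung 1 (difference -0.44 ± 0.10, SE, limma adjusted p = 0.017). The call of Ces1e was lost without stabilized lung 1, knockout lung 2 or knockout lung 3, and after repeated quantile normalization (limma adjusted p = 0.056). In the opposite direction, Ces2e had log2 values of 5.86, 6.06, 6.06 and 6.09 in stabilized lungs, against 5.51, 5.58, 5.71 and 5.70 in knockout lungs, without overlap (difference 0.39 ± 0.07, SE, limma adjusted p = 0.0057). Ces1d, the brightest probe set of the family, averaged 10.36 ± 0.11 across stabilized and 10.47 ± 0.06 across knockout lungs (SD, n = 4; limma adjusted p = 0.37). Genes of a Ces subfamily are close copies, so probes may share signal.

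Many of these genes lie side by side on chromosomes. In the RefSeq gene order 73 of the 103 fall into 19 runs in which at most 1 other protein-coding gene separates neighbours. In 9 of these runs lay 13 of the 18 calls, a share near that of the members in runs. Called and uncalled genes stood next to each other. Sult1b1 and Sult1e1, on the sides of Sult1d1, had means of 2.76 and 2.85 at the bottom of the array, where a change could hardly be seen. In the run of 6 Adh genes the values in order were -0.74 for Adh7, -0.44 for Adh1, -0.10 for Adh6a, 0.12 for Adh6b, 0.01 for Adh4 and 0.07 for Adh5. The means of Adh6a, Adh6b and Adh4 were only 4.23, 4.28 and 4.22, so their differences may be understated. Adh6-ps1, at -0.23 (limma adjusted p = 0.095), was not placed in a run. The run of 7 mu-class genes spanned -0.37 to 0.25 with calls for Gstm3, by its brighter probe set, and Gstm1. In the run from Ces1a to Ces5a all 8 values were negative, with calls for the adjacent Ces1e and Ces1f, and in the run from Ces2a to Ces4a the call for Ces2e stood among 7 uncalled genes at -0.16 to 0.09. Differences between neighbours were not tested.

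**Figure D4:**
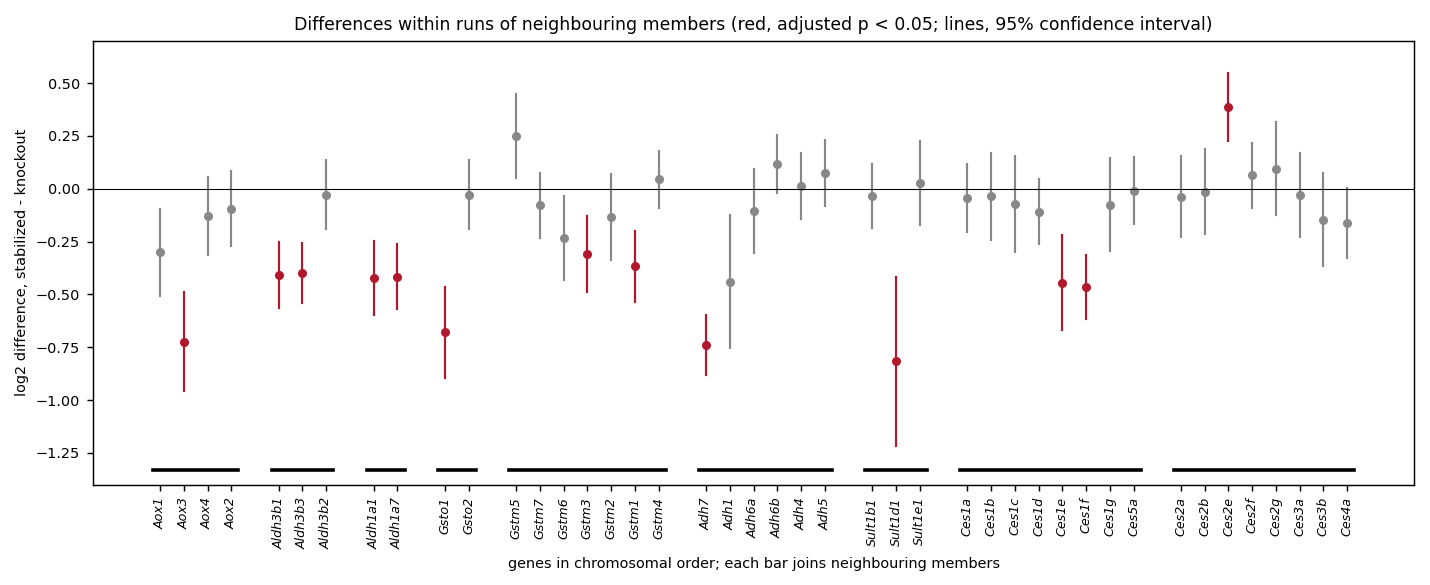
Difference between stabilized and knockout lungs (log2, y axis) with 95% confidence intervals for genes in chromosomal order (x axis, not to scale), for the 9 runs with a called gene (red). Aldh1a1 and Aldh1a7 lie at the same value of -0.42, and the neighbours of Sult1d1 are at the lowest signals of the array, so their values near 0 are not informative.

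Genes that supply or complete these reactions outside the families gave calls in both directions. Over 9 lists with 168 measured genes, each counted once, 15 rose, 10 fell and 143 did not pass, with a median of 0.01. The increases were 8.93% of these genes, against 4.65% of all genes, and the decreases 5.95%, against 4.96% of all genes. Of 24 genes of glutathione synthesis, reduction and breakdown, 1 rose and 2 fell. Glrx, which removes glutathione from protein thiols, rose by 0.71 ± 0.10, and the peroxidase genes Gpx2 and Gpx3 fell by 0.42 ± 0.07 and 0.41 ± 0.08 (SE). Gclc, the rate-limiting enzyme of glutathione synthesis, differed by -0.16 ± 0.12 (SE, limma adjusted p = 0.45). Of 15 membrane-bound and related transferases 0 rose and 2 fell, Mgst2 by 0.51 ± 0.13 and the glutathione transferase-fold channel protein gene Clic6 by 0.27 ± 0.08 (SE).

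Of 12 genes of sulfate activation and desulfation 3 rose and 0 fell: Papss1, which makes the sulfate donor, by 0.41 ± 0.07, the sulfatase gene Arsa by 0.28 ± 0.08 and the sulfatase activator Sumf1 by 0.22 ± 0.06 (SE). The list was mixed, with 5 of its 12 differences negative and Arsb, another sulfatase gene, at -0.38 (limma adjusted p = 0.064). Every stabilized lung was above every knockout lung for Papss1 (limma adjusted p = 0.0038), whereas for Sult1d1 every stabilized lung was below. Of 8 genes of UDP-glucuronate supply and removal 1 rose, Gusb, which splits glucuronides, by 0.25 ± 0.07 (SE), and Ugdh, which makes the donor, differed by 0.10 ± 0.07 (SE, limma adjusted p = 0.37). Of 15 export transporters Abcg2 and Abcc5 rose by 0.29 ± 0.08 and 0.25 ± 0.06 (SE) and 0 fell.

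Regulators and textbook targets of Nrf2, the factor that induces many of these enzymes under oxidative stress, gave 0 limma calls among the 24 genes of their list. Their median was 0.03, and 9.62% of all genes were called. An unadjusted limma p under 0.05 was found for 2 of the 24, and for 4923 of all 19937 genes. That list holds no member of the 9 families, so glutathione transferases known as Nrf2 targets, among them the lower Gsta3, Gsta4 and Gstm1, are not in it, and Gpx2 and Ephx1, both lower, were counted in other lists. Nfe2l2, which encodes Nrf2, averaged 9.66 ± 0.08 across stabilized and 9.63 ± 0.12 across knockout lungs (SD, n = 4; limma adjusted p = 0.83). Of 17 aryl hydrocarbon receptor and other sensor genes 1 rose, the receptor target Cyp1b1, by 0.62 ± 0.07 (SE), and Ahr itself averaged 9.32 ± 0.07 across stabilized and 9.36 ± 0.18 across knockout lungs (SD, n = 4; limma adjusted p = 0.82). Of 29 other xenobiotic enzymes 3 rose and 5 fell, among them the lactonase gene Pon1, lower by a log2 difference of -0.59 ± 0.11, Akr1e1 at -0.32 ± 0.07 and the thiopurine methyltransferase gene Tpmt, higher by 0.37 ± 0.07 (SE). Of 27 retinoid genes 4 rose and 1 fell, with Fabp5, a carrier of retinoic acid, up by 0.64 ± 0.07, Rdh11 by 0.30 ± 0.06 and Rdh13 by 0.29 ± 0.07 (SE), beside the lower Adh7 and Aldh1a1.

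Markers of several cell types differed between the same lungs. Over all genes 4.65% rose and 4.96% fell, or 9.62% called in either direction. Of 15 club cell markers 12 fell and 0 rose, and their mean level was 7.45 to 7.86 in stabilized and 8.70 to 9.08 in knockout lungs. Scgb1a1, the main club cell secretory protein gene, fell by 0.51 ± 0.08 (SE). Of 23 ciliated cell markers 20 fell and 0 rose, with means of 5.66 to 5.84 in stabilized and 6.49 to 6.55 in knockout lungs, and Foxj1, the ciliated cell regulator, fell by 0.62 ± 0.08 (SE). T and NK cell markers gave 11 decreases of 13 (means 5.98 to 6.20 in stabilized and 6.72 to 7.46 in knockout lungs), and B and plasma cell markers 10 of 11 (5.44 to 5.52 in stabilized and 6.24 to 6.61 in knockout lungs). Of 14 cardiac and skeletal muscle markers 5 fell, and of 12 alveolar type 2 markers 8 rose and 0 fell (means 10.96 to 11.14 in stabilized and 10.69 to 10.81 in knockout lungs). Of 10 mesothelial markers 4 rose and 0 fell (means 7.20 to 7.29 in stabilized and 6.996 to 7.008 in knockout lungs). Of 15 fibroblast and smooth muscle markers 3 rose and 0 fell (means 9.86 to 9.98 in stabilized and 9.76 to 9.84 in knockout lungs). Alveolar type 1 markers gave 1 increase of 12 and adipocyte markers 1 decrease of 10, or 8.33% and 10% called, near the share of all genes. Macrophage markers gave 1 increase and 1 decrease of 9. Endothelial and squamous markers gave 0 limma calls. Of these, 2 of 12 and 1 of 10 had an unadjusted limma p under 0.05, where 4923 of all 19937 genes did. The 10 hepatocyte markers had means of 4.73 to 5.36 in stabilized and 4.86 to 4.96 in knockout lungs, with 1 lower (10% called). The 16 members that fell averaged 7.55, 7.66, 7.59 and 7.60 in stabilized lungs and 8.11, 8.06, 8.17 and 8.17 in knockout lungs. The part of these cell markers in the differences of the enzymes was not tested.

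**Figure D5:**
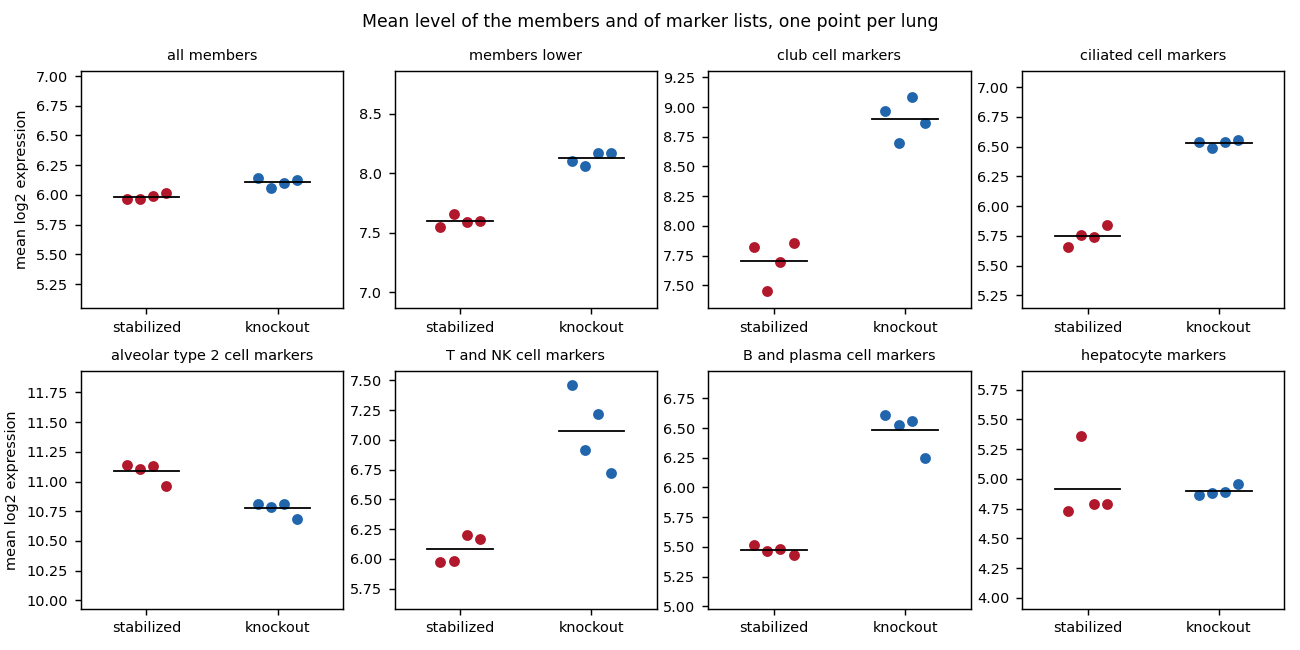
Mean log2 expression (y axis) of all 103 members, of the 16 members that fell and of 6 marker lists, one point per lung with the group mean as a line, every panel spanning the same range of log2 units. The groups separate fully in every panel except that of hepatocyte markers, in which stabilized lung 2 stands above the other lungs. Alveolar type 2 markers are higher in stabilized lungs, and the members that fell were chosen for their difference.

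The arrays whose sex-linked genes went against the label were left out as a check. Without them, 2 lungs per genotype remained, and 3 members fell (Gsta4, Adh7 and Aox3) and 0 rose, while 354 genes were called over all. With those 4 arrays alone 6 members fell and 0 rose, and 670 genes were called. All 18 called members kept their direction in both fits, but for all except Ces1e the groups did not overlap, so that direction was fixed in advance. With Xist as a covariate on all 8 arrays the 16 decreases and 2 increases remained. High Xist was balanced over the genotypes, at 2 lungs each, so this covariate could hardly move the differences.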

How the data were processed

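Gene expression in lungs of 4 stabilized and 4 knockout mice was measured on Affymetrix arrays from biotin-labelled cRNA, per the labels' protocols. Expression was deposited on the log2 scale for each probe set, and RMA and affy are named without versions per the submitters' processing notes. By its usual definition RMA subtracts background and equalizes the distribution of all arrays, which hides changes in total RNA and compresses differences of dim probe sets. The build behind the probe set annotation is not given in the sources used here, and the promoter windows are RefSeq's on GRCm38.p6. Arrays carry no read depth, so precision is limited by 4 arrays per group.

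Annotation gave 1 symbol for 21640 of 34760 probe sets and several for 1321, and it did not list 11799. The probe set with the highest mean stood for each of 19937 genes, and all 103 members were found in the RefSeq gene table by Entrez identifier, with 0 symbols changed. The comparison used limma 3.58.1 in R 4.3.3 (lmFit, eBayes, 6.20 prior and 12.2 total degrees of freedom) on all 8 arrays, stabilized minus knockout, with no covariate or filter, Benjamini-Hochberg adjustment over all genes and a threshold of 0.05. The code was tested on simulated data. Replicates are biological per the labels. Deviations from the group means correlated at -0.01 to 0.08 between arrays of the same replicate number, so the numbers were not taken as pairs.

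Members, lists and alternatives were chosen with earlier results of these data known. Named are all called members, the brightest of each of 9 families, the 2 nearest outside the threshold, up to 3 called genes per partner list and Nfe2l2, Ahr, Gclc and Ugdh; other genes with values (Gsto2, Gstt1, Fmo1, neighbours and further Aldh, Adh and Aox genes) were chosen after their values were seen.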

Additional observations from a re-analysis of the deposited data

Results flagged for a closer look

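In 7 of 50 sets of 4 lungs tested (25 named members in each genotype), the highest or lowest lung stood apart from the rest by more than Dixon's 95% critical value, where chance flags about 1 in 20. Knockout lung 2 was low for Gsto1 (8.22, against 8.61 to 8.65 in the other knockout lungs) and for Gstm1 (9.79, against 10.09 to 10.13). Knockout lung 4 was high for Aldh1a1 (11.86, against 11.61 to 11.65) and low for Adh1 (10.65, against 10.76 to 10.78). Stabilized lung 2 was high for Ugt8a (4.85, against 4.64 to 4.68), stabilized lung 4 was high for Adh7 (5.37, against 5.20 to 5.22) and stabilized lung 1 was low for Ces2e (5.86, against 6.06 to 6.09). Apart from Adh1, which did not pass the test, each of these genes stayed past the threshold in every fit that left out 1 array.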

How the results depend on the processing

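Of the 18 called members, Gsta4 and Adh7 were called under every alternative that tested them, and 14 in all 8 fits that left out 1 array. Leaving out 1 array gave 13 to 16 lower members, 1 to 2 higher members and 1216 to 1839 calls over all genes. There was 1 higher member without stabilized lung 1 or knockout lung 1, 2 or 3, and the calls over all genes fell to 1216 without stabilized lung 1 and 1235 without knockout lung 3. After repeated quantile normalization Aldh7a1 and Ces1e were lost and Aox1 was gained, with 1 higher member, and higher members numbered 1 among genes with a mean of at least 6, a filter that left 45 members and did not test Ces2e. With only the 4 arrays of low Xist there were 0 higher members, 3 lower members and 354 calls over all genes, and with only the 4 arrays of high Xist, an alternative chosen after seeing the data, 0, 6 and 670; both have fewer samples. With the replicate number as a block 3 members were higher, 17 were lower (Aldh1a2 and Aox1 were gained) and 1828 genes were called, and 2 of 8 arrays correlated best with their own number in the other genotype. The prior with a trend, median centring, the mean of all probe sets and Xist as a covariate kept each count within 1.5 times.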

Other observations

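Further called genes of the partner lists, chosen after their values were seen, were the epoxide hydrolase gene Ephx1 (-0.36 ± 0.08), the xylulose reductase gene Dcxr (-0.39 ± 0.09), Akr1b10 (-0.39 ± 0.11) and Dhrs7c (-0.30 ± 0.08), all lower in stabilized lungs (SE, n = 4 per group). The methyltransferase gene Inmt (0.25 ± 0.07), the glucocorticoid-activating Hsd11b1 (0.34 ± 0.09) and the retinoic acid carrier Crabp1 (0.57 ± 0.14) were higher. Ephx1 lay at 9.29, 9.67, 9.50 and 9.51 in stabilized lungs and at 9.90, 9.80, 9.84 and 9.84 in knockout lungs, without overlap.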
